A study of Mus musculus with 10 samples.

Results

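The aryl hydrocarbon receptor pathway was followed across splenic NK cells and liver ILC1 through 5 genes: Ahr, the receptor; Arnt, its DNA-binding partner; Ahrr, its repressor; and the target genes Tiparp and Cyp1b1. They are 5 of the 24981 genes in each deposited table. Ahr was chosen by its measured level, higher in ILC1 and lower there after tofacitinib, so its values in ILC1, and the comparison of its level between the cell types, are given as a description with no test; the other members were taken for their role in the pathway. All libraries came from BALB/c mice. NK cells were sorted from spleen as NKp46+ CD3- cells, and ILC1 from liver as CD3- NKp46+ DX5dim TRAIL+ cells. Mice received vehicle or 30 mg/kg of tofacitinib, an inhibitor of the Janus kinases that carry cytokine signals, orally 2 times a day for 7 days, and each cell type had 3 vehicle and 2 tofacitinib libraries. For NK cells the study describes each replicate as a pool of several mice. For ILC1 it says that the mice of each group were pooled, without the number behind each library. The p-values therefore measure the spread between libraries.

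The aryl hydrocarbon receptor is a ligand-activated transcription factor of the bHLH-PAS family. Without ligand it rests in the cytoplasm with the chaperone Hsp90 and its cochaperone p23 (gene Ptges3); with a ligand such as a dietary indole, a tryptophan metabolite or a dioxin it moves to the nucleus, pairs with Arnt and binds DNA at the core GCGTG. Its classical targets include the cytochromes Cyp1a1, Cyp1a2 and Cyp1b1 and a pair of feedback inhibitors, Ahrr, which competes with the receptor for Arnt, and Tiparp, which ADP-ribosylates the receptor. In the mouse immune system the receptor is best known for the maintenance of ILC3 and intraepithelial lymphocytes, and it is also needed to maintain tissue-resident NK-like cells of the liver.

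The sequences upstream of the 3 target members and of Arnt are shown because the receptor is known to act on its targets through this core. They are RefSeq windows of build GRCm38.p6 (mm10), 5′ to 3′ on the gene's strand. Each GCGTG, or CACGC where the core lies on the other strand, is in capitals. The printed sequences end where the GENCODE gene starts. For Tiparp and Arnt this lies before the RefSeq start, so 213 and 248 of the 250 bases are printed. The windows are chr13:74292332-74292581 (minus strand) for Ahrr, chr3:65528197-65528409 (plus strand) for Tiparp, chr17:79715062-79715311 (minus strand) for Cyp1b1 and chr3:95434140-95434387 (plus strand) for Arnt.
Ahrr: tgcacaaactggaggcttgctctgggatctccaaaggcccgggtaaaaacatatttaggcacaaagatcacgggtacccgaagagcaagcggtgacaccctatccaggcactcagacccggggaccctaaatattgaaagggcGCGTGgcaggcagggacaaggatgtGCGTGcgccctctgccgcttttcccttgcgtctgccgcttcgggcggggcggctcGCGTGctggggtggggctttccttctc
Tiparp: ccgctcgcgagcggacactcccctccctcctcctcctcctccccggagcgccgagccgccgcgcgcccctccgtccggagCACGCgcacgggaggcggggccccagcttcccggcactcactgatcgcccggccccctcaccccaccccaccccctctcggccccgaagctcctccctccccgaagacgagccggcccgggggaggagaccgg
Cyp1b1: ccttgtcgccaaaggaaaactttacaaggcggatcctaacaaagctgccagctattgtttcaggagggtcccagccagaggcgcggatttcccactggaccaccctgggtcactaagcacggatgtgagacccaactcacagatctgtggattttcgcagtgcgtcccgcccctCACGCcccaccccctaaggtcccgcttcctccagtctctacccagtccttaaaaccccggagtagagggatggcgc
Arnt: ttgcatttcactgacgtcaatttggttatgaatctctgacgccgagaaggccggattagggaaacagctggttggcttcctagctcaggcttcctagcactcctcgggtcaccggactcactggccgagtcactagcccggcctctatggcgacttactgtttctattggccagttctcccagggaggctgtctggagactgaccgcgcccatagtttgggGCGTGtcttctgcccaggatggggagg
The Ahrr window held 3 cores, with their first bases 107, 82 and 27 bases before the start, all on the gene's strand. Tiparp and Cyp1b1 held 1 each, on the other strand, in stretches that begin 170 and 76 bases before the start. Arnt held 1 on its own strand, 29 bases before. These positions are counted from the RefSeq start, so for Tiparp and Arnt they exceed the distance to the end of the printed sequence. The longer form TNGCGTG, which contains the core, was found on either strand only once, in Ahrr. Of the 32851 RefSeq windows of 250 bases before a start, 28.2% held GCGTG on either strand, 2.77% held it at least 3 times and 4.10% held TNGCGTG, so a single core is common. A match describes these letters only; binding was not measured here, and the mice were BALB/c while the reference is C57BL/6.

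Libraries had 29199973 to 79258362 alignments. Levels are RPKM, reads per kilobase of exon and scaled to mapped reads per library, and log2 changes are tofacitinib minus vehicle on the scale of log2(RPKM + 0.1), which understates the changes of genes near 0. The ILC1 libraries vehicle 2 and tofacitinib 1 were sequenced in the same run and stood apart: the median RPKM of the genes tested was 7.58 and 8.94, against 11.9 to 13.2 in the other ILC1 libraries, and values of most genes are correspondingly low there. ILC1 libraries carried most markers of their label. The 7 of 8 listed ILC1 markers that are in the tables (Itga1, Tnfsf10, Cxcr6 and others) summed to 340 to 750 RPKM, against 60.1 to 109 in NK cells. Of these, Rora and Il7r did not separate the vehicle libraries. They were 5.01 to 8.32 and 16.8 to 31.4 RPKM in vehicle ILC1, against 5.86 to 6.59 and 19.1 to 22.2 in vehicle NK cells. The 9 NK markers (Eomes, Gzma, Itga2 and others) summed to 419 to 1857 RPKM in ILC1 and 5240 to 7477 RPKM in the NK libraries. Gzma alone made up 346 to 1726 RPKM of this sum in ILC1, and Eomes was 2.44 to 6.29 RPKM there against 173 to 212 in NK libraries. T cell markers, 7 genes, summed to 130 to 259 RPKM in ILC1 and 15.9 to 20.6 RPKM in NK libraries, and Cd3g alone made up 118 to 247 RPKM of this in ILC1; Cd3e was 2.14 to 4.82 RPKM there, and Cd3d was 2.39 to 6.55 RPKM against 3.77 to 5.09 in NK libraries. In these sorted bulk samples, fewer cells that express a gene and less of its RNA per cell cannot be told apart.

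Ahr (chr12:35497974-35535038, minus strand, mm10 with GENCODE vM21) was an ILC1-weighted transcript whose mean in the tofacitinib libraries of ILC1 was 0.511 times that of vehicle. In the 3 vehicle libraries of ILC1 its level was 12.7, 7.99 and 13.8 RPKM, and in the 2 tofacitinib libraries 4.66 and 7.07 RPKM. Both tofacitinib libraries lay below all 3 vehicle libraries, the highest of them only just. The means were 11.5 ± 3.08 (SD, n = 3) and 5.87 ± 1.71 RPKM (SD, n = 2), a log2 change of -0.95. Ahr was the only 1 of the 5 members whose tofacitinib libraries in ILC1 all lay below vehicle; over the 9366 genes tested in ILC1 this held for 3.43%, and since Ahr was picked for this contrast nothing is read from that count.

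The spread of Ahr within ILC1 followed the run. In the run shared by vehicle 2 and tofacitinib 1 its level was 7.99 and 4.66 RPKM, a log2 change of -0.77, and in the run shared by vehicle 3 and tofacitinib 2 it was 13.8 and 7.07 RPKM, a log2 change of -0.95. The low vehicle library and the low tofacitinib library were thus the pair from the run with low medians. Scaling all 10 libraries to 1 median brought the vehicle libraries to 12.6, 12.6 and 12.4 RPKM and the tofacitinib libraries to 6.20 and 6.58 RPKM, with a clear gap between the groups. The ratio of Ahr to Arnt, which any such scaling leaves as it is, was 0.879, 0.845 and 0.756 in the vehicle libraries and 0.368 and 0.410 in the tofacitinib libraries. Over 15 alternatives, including each library left out, the log2 change of Ahr in ILC1 lay between -1.25 and -0.65.

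**Figure D1:**
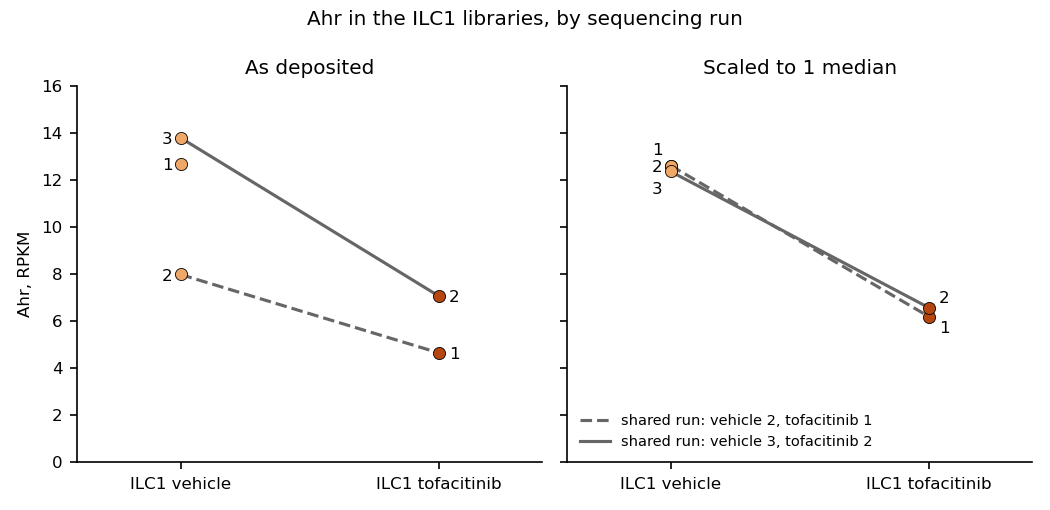
Ahr level in RPKM (y axis, from 0) in the 5 ILC1 libraries, as deposited (left) and with all libraries scaled to the same median (right); numbers are replicates and lines join libraries of 1 sequencing run. As deposited, the vehicle libraries ranged from 7.99 to 13.8 RPKM and the tofacitinib libraries from 4.66 to 7.07; scaled, they were 12.4 to 12.6 and 6.20 to 6.58.

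Markers of other cells also moved between these libraries. ILC1 tofacitinib 1 carried 8 neutrophil markers summing to 150 RPKM and 8 erythroid markers summing to 386 RPKM, against 0.177 to 4.42 and 1.48 to 35.8 in vehicle ILC1; without that library the log2 change of Ahr was -0.65. In the other tofacitinib library these sums were 0.728 and 15.7 RPKM, inside the vehicle range, and Ahr was 7.07 RPKM. The 5 B cell markers summed to 14.7 to 24.4 RPKM in tofacitinib and 5.92 to 10.9 in vehicle ILC1, and 7 ILC3 markers to 4.51 to 8.80 and 2.28 to 4.76 RPKM. Among the ILC3 markers Il17a was listed at 0 in both tofacitinib libraries and Il22 was at 0.0452 and 0.356 RPKM. Hepatocyte markers summed to 1.47 to 2.61 RPKM in tofacitinib and 0.640 to 4.27 in vehicle, and the 6 stellate cell or fibroblast markers to under 1 RPKM in each ILC1 library. The 4 biliary epithelium markers were lower without overlap, at 1.77 to 1.82 RPKM in tofacitinib and 3.88 to 4.77 in vehicle ILC1. Only 1 of them exceeded 1 RPKM in each of these libraries. The 8 macrophage markers summed to 0.507 to 1.22 RPKM in tofacitinib and 1.00 to 3.17 in vehicle ILC1. The NK libraries also carried such markers. Their B cell markers summed to 88.8 to 117 RPKM with tofacitinib and 69.6 to 109 with vehicle. Their erythroid markers summed to 53.0 to 80.9 RPKM with tofacitinib and 75.2 to 328 with vehicle. The part of these cells in the level of Ahr, or of other genes, was not tested.

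In splenic NK cells Ahr was low in every library. Its level was 1.97, 1.66 and 1.95 RPKM with vehicle and 1.37 and 2.05 RPKM with tofacitinib, so the groups overlapped, with 1 tofacitinib library below and 1 above all vehicle libraries. The means were 1.86 ± 0.173 (SD, n = 3) and 1.71 ± 0.484 RPKM (SD, n = 2), and the log2 change was -0.14. Ahr missed the level needed for testing in NK cells, a group mean of log2(RPKM + 0.1) above 1 in at least 1 group; in a fit without that filter its limma adjusted p was 0.907. Leaving out tofacitinib 1 turned the change to 0.14, and leaving out tofacitinib 2 made it -0.41.

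Between the cell types, the level of Ahr did not overlap in any library. Vehicle ILC1 had 6.18 times the mean RPKM of vehicle NK cells, a log2 difference of 2.53, and the lowest of the 5 ILC1 libraries was 2.27 times the highest of the 5 NK libraries. Among the 9857 genes tested in either table, which include Ahr, 147 (1.49%) had a log2 difference of this size or larger, against a median of -0.28; among the 8981 tested in both, which do not include Ahr, 43 (0.479%) did. Ahr was picked for this level, and the tables were normalized separately, so no test is given. With tofacitinib the ratio of means was 3.43. In ILC1 with vehicle, Ahr had a higher mean RPKM than 81.8% of genes, and in NK cells with vehicle than 62.3%. All NK libraries came from spleen and all ILC1 libraries from liver. Cell type and organ therefore cannot be told apart, for Ahr or for any other gene compared between them.

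Arnt (chr3:95434388-95497240, plus strand), the partner that the receptor shares with the hypoxia factors, was the most highly expressed member in every library. In NK cells its level was 19.3, 18.5 and 18.1 RPKM with vehicle and 18.5 and 18.5 RPKM with tofacitinib, a narrow range in which the groups overlapped. In ILC1 it was 14.4, 9.45 and 18.2 RPKM with vehicle and 12.7 and 17.3 RPKM with tofacitinib, again overlapping, with the low values in the run of vehicle 2 and tofacitinib 1. Its log2 change was -0.01 (SE 0.08, limma adjusted p = 0.936) in NK cells and 0.12 (SE 0.50, adjusted p = 1.00) in ILC1. Within the runs of ILC1 it was 0.42 and -0.08, and leaving out vehicle 2 or tofacitinib 2 turned it to -0.13 or -0.10. Vehicle ILC1 had 0.752 times the mean of vehicle NK cells, and since the highest ILC1 library was at 18.2 RPKM and the lowest NK library at 18.1, those levels overlapped. After scaling to 1 median the vehicle libraries were 14.3 to 16.4 RPKM in ILC1 and 16.8 to 17.7 in NK cells, narrowly apart. The ratio of Ahr to Arnt was 0.0741 to 0.111 in the NK libraries and 0.756 to 0.879 in vehicle ILC1, and 0.368 to 0.410 in tofacitinib ILC1.

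Ahrr (chr13:74211118-74292331, minus strand), the repressor and a target of the receptor, was at the edge of detection. It was listed at 0, 0 and 0.0260 RPKM in vehicle NK cells and at 0.0221 and 0.0251 in tofacitinib NK cells. In ILC1 it was 0.0812, 0.212 and 0.0608 RPKM with vehicle and 0.159 and 0.0494 RPKM with tofacitinib. Every ILC1 library was above every NK library, and within ILC1 the higher values were those of vehicle 2 and tofacitinib 1. With the exon length of the GENCODE annotation, these values would stand for about 29 to 123 reads in an ILC1 library and 0 to 17 in an NK library. Ahrr was under the level needed for testing in both cell types, and no fold is given.

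Tiparp (chr3:65528410-65555518, plus strand), the ADP-ribosyltransferase that limits receptor activity, was higher in NK cells than in ILC1, the opposite order to Ahr. In NK cells it was 3.64, 3.29 and 3.37 RPKM with vehicle and 4.15 and 3.64 RPKM with tofacitinib, and in ILC1 2.33, 1.17 and 2.23 RPKM with vehicle and 1.53 and 3.09 RPKM with tofacitinib. All 3 vehicle ILC1 libraries lay below all 3 vehicle NK libraries, with a ratio of means of 0.556 and a log2 difference of -0.87, to be read against the median of -0.28. After scaling to 1 median the vehicle libraries were 1.84 to 2.32 RPKM in ILC1 and 2.98 to 3.34 in NK cells, still apart. Its log2 change with tofacitinib was 0.17 (SE 0.13, adjusted p = 0.445) in NK cells and 0.24 (SE 0.45, adjusted p = 1.00) in ILC1, where it passed the filter only through the tofacitinib group. Within the shared runs of ILC1 it was 0.36 and 0.45, upward in both, and with the run as a block the change was 0.41 (adjusted p = 0.590). Leaving out ILC1 tofacitinib 2 turned it to -0.25, and leaving out vehicle 2 to -0.06.

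Cyp1b1 (chr17:79701537-79715061, minus strand), a cytochrome target expressed mainly outside hepatocytes, was at or near 0 throughout. In NK cells it was listed at 0, 0.0319 and 0 RPKM with vehicle and at 0 in both tofacitinib libraries. In ILC1 it was 0.0802, 0.0979 and 0.00400 RPKM with vehicle and 0.0647 and 0 RPKM with tofacitinib, so the groups overlapped. These values would stand for 0 to 35 reads a library at the GENCODE exon length. The related targets Cyp1a1 and Cyp1a2 stayed under 0.1 RPKM in every library.

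**Figure D2:**
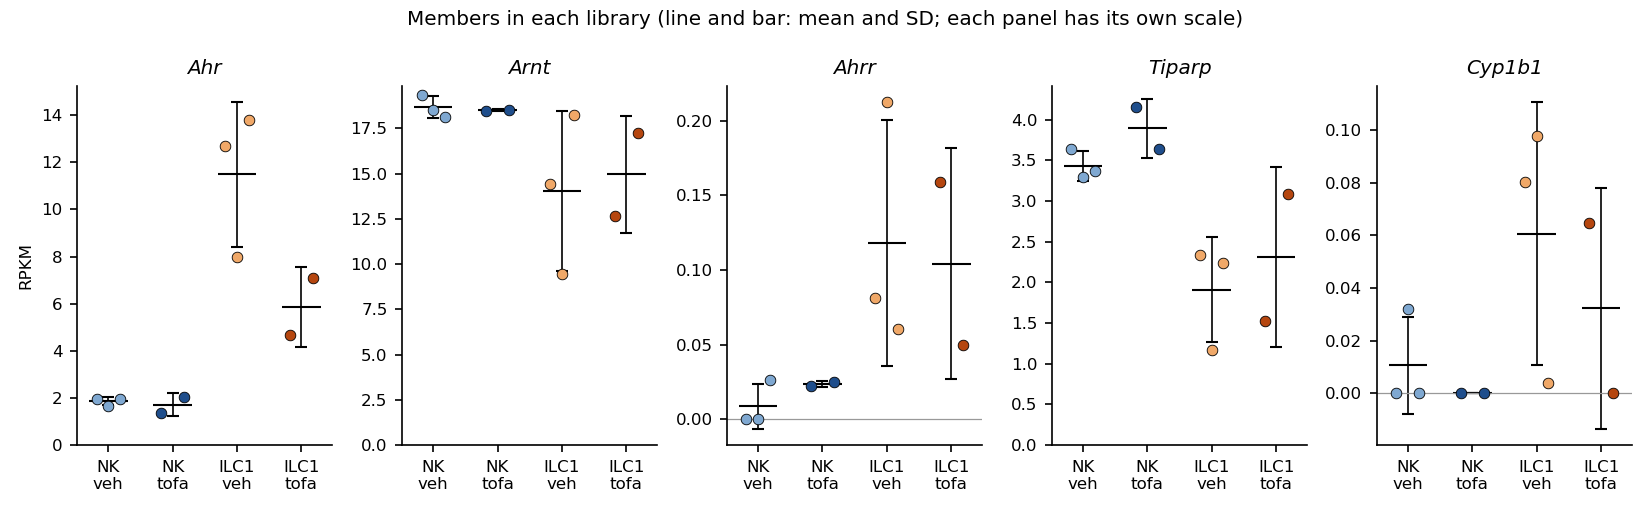
RPKM of the 5 members in each library of NK cells and ILC1 with vehicle (veh, 3 libraries) or tofacitinib (tofa, 2 libraries); points are libraries, the line is the group mean and the bar its SD, and each panel has its own scale. Ahr separates all ILC1 from all NK libraries, Tiparp separates vehicle libraries the other way, and Ahrr and Cyp1b1 stay under 0.213 RPKM.

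None of the members tested was called in NK cells (0 of 2; 4.81% of the 9472 genes tested had an adjusted p under 0.05, 286 lower and 170 higher), and 2209 of those genes had an unadjusted p under 0.05, Arnt and Tiparp not among them. In ILC1 neither Arnt nor Tiparp was called, where 0.470% of 9366 genes were (26 lower and 18 higher), and neither was among the 208 genes with an unadjusted p under 0.05. Changes in ILC1 were measured with less precision: the median SE of a log2 change was 0.486, against 0.102 in NK cells. The ILC1 counts depended on how runs were handled, with 219 lower and 186 higher (4.32%) when the run was a block and 204 lower and 46 higher after scaling to 1 median; without vehicle 2 there were 91 lower and 29 higher, and without tofacitinib 1 there were 1 lower and 5 higher. Arnt and Tiparp were called in none of these fits. The change in ILC1 minus that in NK cells was 0.14 for Arnt (SE 0.47, adjusted p = 1.00) and 0.06 for Tiparp (SE 0.45, adjusted p = 1.00), with 0.145% of 8981 genes called.

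Beyond the members, 62 further genes of the pathway were listed in 7 groups, of which 60 were in the tables. In NK cells 34 were tested: 1 rose and 1 fell, where 4.81% of all 9472 genes tested were called. Of the 34, 11 had an unadjusted p under 0.05, as had 2209 of the 9472. The median log2 change of the 34 was -0.00148, against -0.0123 over all genes tested. In ILC1 36 were tested and none was called in either direction, where 0.470% of all 9366 genes tested were. The median log2 change of the 36 was 0.06, against 0.01 over all genes, and 1 had an unadjusted p under 0.05, as had 208 of all 9366. With the run as a block, ILC1 had 1 lower and 4 higher among these 36, where 4.32% of all genes tested were called.

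Of the chaperone complex that holds the unliganded receptor, 5 of 6 genes were tested in NK cells, and Hsp90aa1, the inducible Hsp90 isoform, rose. Its level was 63.5, 74.4 and 70.0 RPKM with vehicle and 108 and 91.1 RPKM with tofacitinib, with both tofacitinib libraries above all vehicle libraries. The log2 change was 0.52 (SE 0.10, adjusted p = 0.029); the call was lost without vehicle 1, tofacitinib 1 or tofacitinib 2, with adjusted p between 0.0873 and 0.358. Hsp90ab1, the constitutive isoform and the most abundant gene of the list, changed by 0.34 (adjusted p = 0.149), and the median over the 5 genes was 0.30. In ILC1 Hsp90aa1 was 92.6, 63.0 and 121 RPKM with vehicle and 55.8 and 152 RPKM with tofacitinib, a log2 change of 0.05 (SE 0.54, adjusted p = 1.00) over widely spread libraries.

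Among the immune targets, 7 of 13 genes were tested in NK cells and 8 in ILC1. Socs2, a suppressor of cytokine signaling that is described as a target of the receptor and also of STAT5, was called lower in NK cells. Its level was 3.26, 3.22 and 3.10 RPKM with vehicle and 1.93 and 1.797 RPKM with tofacitinib, without overlap. The log2 change was -0.75 (SE 0.14, adjusted p = 0.025); in NK cells Socs2 passed the level filter only through the vehicle group. The call was lost without vehicle 1, tofacitinib 1 or tofacitinib 2, with adjusted p between 0.0772 and 0.205. In ILC1 Socs2 was 35.3, 19.5 and 40.4 RPKM with vehicle and 11.1 and 14.1 RPKM with tofacitinib, again without overlap and with a vehicle mean 9.94 times that of NK cells. There its log2 change was -1.27 (SE 0.51, adjusted p = 0.911); with the run as a block it was -1.16 (adjusted p = 3.76e-05), after scaling to 1 median -1.28 (adjusted p = 0.008), and without vehicle 2 it was -1.58 (adjusted p = 0.007). The difference of its response between the cell types was -0.52 (adjusted p = 1.00). The most abundant immune targets, Ikzf3 and Prdm1 in NK cells and Ikzf3 and Socs2 in ILC1, included no other call: Ikzf3, a lymphoid zinc finger factor, changed by -0.26 in NK cells (adjusted p = 0.103) and -0.08 in ILC1 (adjusted p = 1.00), and Prdm1, the repressor Blimp-1, by 0.17 in NK cells (adjusted p = 0.252).

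Of the other genes called in ILC1 with the run as a block, 3 are named, after their values were seen. They were Epas1, the hypoxia factor HIF-2α and a bHLH-PAS relative, with a log2 change of 1.02 (adjusted p = 0.013); Kit, the stem cell factor receptor, with 0.79 (adjusted p = 0.013); and Kyat1, a kynurenine aminotransferase, with 0.88 (adjusted p = 0.023). Without the block each had an adjusted p of 1.00; after scaling to 1 median Kit was also called (0.69, adjusted p = 0.049), and Epas1 and Kyat1 were not. Vehicle 1 shared its run with no tofacitinib library, so it adds nothing to the change in the block fit. In ILC1 Kyat1 was 2.95, 1.28 and 2.29 RPKM with vehicle and 2.84 and 3.66 RPKM with tofacitinib, with overlap. Epas1 was 2.196, 0.849 and 1.43 RPKM with vehicle and 2.201 and 2.50 RPKM with tofacitinib there. Epas1 passed the level filter only through the tofacitinib group. Kit was 8.25, 5.72 and 7.93 RPKM with vehicle and 9.38 and 14.7 RPKM with tofacitinib in ILC1, without overlap. In NK cells Kit was 8.62, 5.72 and 5.43 RPKM with vehicle and 7.55 and 10.9 RPKM with tofacitinib, with overlap. Its log2 change there was 0.49 (limma adjusted p = 0.209). With the sample sheet letter as a block it was 0.70 (limma adjusted p = 7.87e-05). The letters did not pair the NK libraries (r of deviations -0.143 and -0.157). That block also takes vehicle 1, at 8.62 RPKM, out of the change, so nothing is read from this value. Epas1, not tested in NK cells, was 0.992 to 1.17 RPKM with vehicle there and 1.38 and 1.67 RPKM with tofacitinib.

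The xenobiotic enzyme targets were nearly silent: 8 of 9 stayed under 1 RPKM in every library, and the only 1 tested was Nfe2l2, the antioxidant response factor, with changes of -0.01 in NK cells (adjusted p = 0.978) and 0.26 in ILC1 (adjusted p = 1.00). The next most abundant over all libraries of a table were the glucuronosyltransferase Ugt1a6b in NK cells, with means of 0.264 RPKM with vehicle and 0.207 with tofacitinib, and the quinone reductase Nqo1 in ILC1, with 0.198 and 0.327 RPKM. Among bHLH-PAS relatives Hif1a, which also pairs with Arnt, changed by -0.15 (adjusted p = 0.287) in NK cells and -0.14 (adjusted p = 1.00) in ILC1, and the clock partner Arntl by 0.22 (adjusted p = 0.190) and 0.44 (adjusted p = 1.00). Arnt2, the paralog of Arnt, was 3.44 RPKM in vehicle ILC1 and 0.167 RPKM in vehicle NK cells, and changed by -0.44 in ILC1 (adjusted p = 1.00). All 11 coregulators were tested in both cell types and none was called; the most abundant, Rela and Ep300, changed by -0.06 and 0.09 in NK cells (adjusted p = 0.740 and 0.525). In ILC1 Rela and Ncoa3 were the most abundant and changed by 0.14 and 0.02 (adjusted p = 1.00 for both). Of the enzymes that make tryptophan-derived ligands, Ido1, Ido2 and Tdo2 stayed under 1 RPKM, while Afmid, the kynurenine formamidase, changed by -0.41 in NK cells (adjusted p = 0.091) and 0.06 in ILC1 (adjusted p = 1.00), and Kyat1 by 0.50 in NK cells (adjusted p = 0.067). The 4 turnover genes had no call in either cell type; the ubiquitin ligase Stub1 changed by 0.03 and -0.07 and the ligase scaffold Cul4b by 0.08 and 0.53 in NK cells and ILC1.

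**Figure D3:**
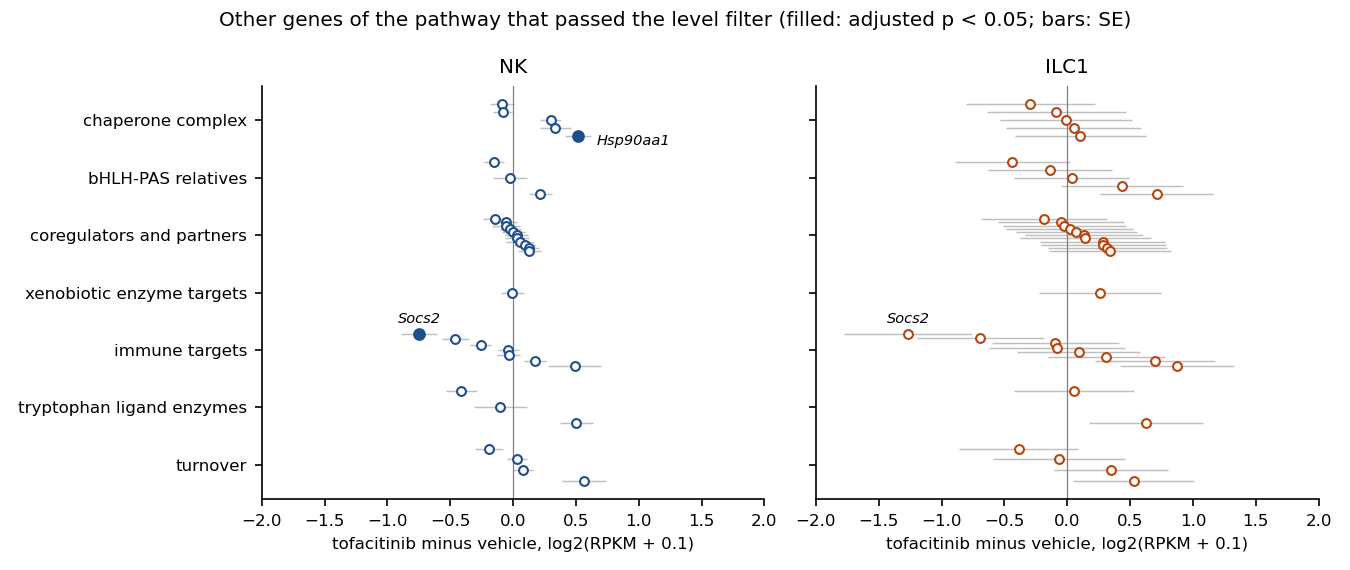
Log2 change, tofacitinib minus vehicle on log2(RPKM + 0.1), of each tested gene of the 7 pathway groups in NK cells (left) and ILC1 (right); points are genes, bars are SE, and filled points have an adjusted p under 0.05. In NK cells Hsp90aa1 (0.52) and Socs2 (-0.75) are filled; in ILC1 none is, and Socs2 lies lowest at -1.27.

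The genes whose pattern over the 10 libraries was most like that of Ahr were found by the root mean square difference of log2(RPKM + 0.1), each gene centred on its mean, among 9365 genes. They were Crmp1 (0.211), a collapsin response mediator; Gpr55 (0.247), a receptor for lysophosphatidylinositol; Gsn (0.269), the actin-severing protein gelsolin; Snai3 (0.276), a zinc finger repressor; and Plk3 (0.298), a polo-like kinase. The median over all genes was 1.29. Crmp1 was 2.90, 1.8 and 2.93 RPKM in vehicle ILC1, 1.54 and 1.90 RPKM in tofacitinib ILC1 and 0.310 to 0.530 RPKM in NK cells. Its tofacitinib libraries overlapped with vehicle 2, unlike those of Ahr. Plk3 was 12.9, 7.94 and 14.1 RPKM in vehicle ILC1 and 5.64 and 8.22 RPKM in tofacitinib ILC1, close to the levels of Ahr itself but also overlapping with vehicle 2. In NK cells Plk3 was 2.87 to 2.97 RPKM with vehicle and 1.74 and 1.72 RPKM with tofacitinib, without overlap. Crmp1 was 0.425 to 0.530 RPKM with vehicle and 0.310 and 0.378 RPKM with tofacitinib there, also without overlap, while the NK groups of Ahr overlapped. With each gene divided by its SD, only Crmp1 remained among the first 5, which then also held St14, Abcb9, Mdfic and Itgav. The profiles share the libraries, and with them the low values of the run of vehicle 2 and tofacitinib 1.

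**Figure D4:**
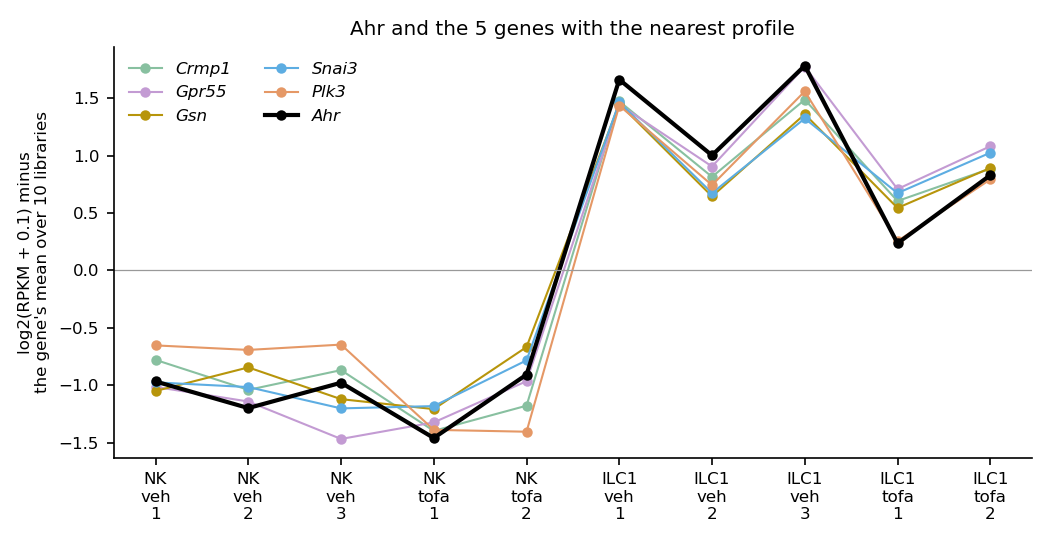
Log2(RPKM + 0.1) of Ahr (black) and of the 5 genes with the nearest profile, each minus its own mean over the 10 libraries (y axis), by library (x axis). All 6 genes are low in the 5 NK libraries and high in the 5 ILC1 libraries, with dips at ILC1 vehicle 2 and tofacitinib 1.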

How the data were processed

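RNA of sorted splenic NK cells and liver ILC1 was sequenced in 10 libraries (50-bp single-end reads, NEBNext Ultra II). The authors aligned reads to mm10 with TopHat2 2.1.1 after base calling with CASAVA 1.8.2, as the processing notes have it, or with bcl2fastq, as the methods have it, and computed RPKM in Partek; these deposited RPKM values, in a separate table for each cell type, were used as they are. Since RPKM holds no read counts, errors rest on the replicate libraries, whose log2 values correlated at 0.977 to 0.995 for NK cells and at 0.936 to 0.977 for ILC1; libraries had 29199973 to 79258362 alignments. The deposited log2 group means, p-values, q-values and ratios of the authors' analysis of variance were not used.

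Tofacitinib and vehicle were compared within each cell type with limma (version 3.58.1 in R 4.3.3), as a two-sided moderated test with a mean-variance trend, on log2(RPKM + 0.1), for genes with a group mean above 1 in at least 1 group, leaving out 1296 Mir and Snor names; p-values were adjusted by Benjamini-Hochberg over all genes tested, with a threshold of 0.05. In ILC1 the prior degrees of freedom were infinite, so each variance follows the trend. The difference of responses was the interaction term of a joint fit. The scale and offset follow the study's methods; the level filter is near to its cut on mean RPKM but is applied to group means of log2 values; limma stands in place of its analysis of variance, and the code was tested on simulated data. Read numbers are RPKM times GENCODE vM21 exon length and alignments, and the authors' gene models may differ.

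The sample sheets give the run of each ILC1 library and a letter for each NK library, which pair vehicle 2 with tofacitinib 1 and vehicle 3 with tofacitinib 2. Vehicle 1 had no such partner in either cell type. With these blocks it adds nothing to a change, which rests on the paired libraries alone. In ILC1 deviations from group means correlated within runs (r = 0.633 and 0.779), so values with the run as a block are given where they change a call; NK letters did not pair (r = -0.143 and -0.157).

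Members and gene lists were chosen with earlier results of these data known. Genes named are the members in every library, up to 12 called genes of the pathway lists per comparison, the 2 most abundant per list, the 5 genes most like Ahr and the cell type markers; others are marked. Alternatives were other offsets (1 and 0.01), filters, scalings, variance models, blocks, library weights and leaving out each library. RefSeq promoter windows were searched for GCGTG and TNGCGTG on both strands. Some genes of the lists are not reported here by name.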

Additional observations from a re-analysis of the deposited data

How the results depend on the processing

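Arnt and Tiparp were called under no alternative, and no called result changed sign, while the uncalled ILC1 changes of Arnt (-0.13 to 0.35) and Tiparp (-0.25 to 0.73) and their differences from NK cells did; of 537 values under alternatives, 419 kept direction and call or stayed within the spread. With the run as a block, genes called in ILC1 numbered 219 lower and 186 higher; with the replicate numbers of the titles as a block they were 0 and 2, and in NK cells 1150 and 664, but those numbers did not pair the libraries (r of deviations 0.161 and -0.633 in ILC1, 0.0171 and 0.143 in NK cells). Of these r, -0.633 and 0.143 mirror the values within a run or letter and are no separate evidence. The letter as a block gave 365 lower and 286 higher in NK cells, of 9472 genes tested. Pathway genes called were 5 of 36 tested in ILC1 with the run block, where 4.32% of all genes tested were called. In NK cells they were 4 of 34 with the letter and 6 of 34 with the replicate block. Pathway counts follow the counts over all genes here and are not read as a result about the pathway. Scaling to 1 median gave 204 lower and 46 higher in ILC1, with 3 pathway genes. In NK cells it gave 308 lower and 192 higher, with 4 pathway genes, and for the difference of responses 2 lower and 0 higher. Quantile normalization gave 188 lower and 56 higher in ILC1 with 3 pathway genes, 5 pathway genes in NK cells and, for the difference, 1 higher. Without the filter ILC1 had 0 and 0, NK cells 24 lower and 71 higher with 0 pathway genes, and the difference 0 and 0. The stricter filter, a mean above 2, gave 15 lower and 9 higher in ILC1, and offset 1 gave 2 lower for the difference. With each gene's own variance all counts were 0, limma without trend gave 111 higher in NK cells, and library weights gave 0 and 0 for the difference. The cause of these shifts was not tested.

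Leaving out 1 library, genes called in ILC1 ranged from 1 (without vehicle 1 or tofacitinib 1) to 91 lower (without vehicle 2) and from 5 to 29 higher, with 0 to 1 pathway genes; in NK cells from 28 to 434 lower and from 9 to 356 higher (lowest without tofacitinib 1, highest without vehicle 2), with 0 to 7 pathway genes; and for the difference from 1 to 7 lower and 1 to 12 higher (fewest higher without ILC1 vehicle 2). Ahr in NK cells ranged from -0.41 to 0.14 and its vehicle level in ILC1 against NK from 2.38 to 2.77.

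For members near 0 the offset sets the log2 value. Offset 0.01 gave -0.91 for Cyp1b1 in ILC1, -0.69 for Cyp1b1 and 1.13 for Ahrr in NK cells, and vehicle differences between cell types of 2.88 for Ahrr and 1.67 for Cyp1b1. Offset 1 gave 0.0213 for Ahrr in NK cells and vehicle differences of 0.15 for Ahrr, 0.0688 for Cyp1b1 and 2.096 for Ahr. Of the 5 genes most like Ahr, 1 stayed after scaling by SD.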
